A study of Danio rerio with 37 samples.

Results

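The 8 genes described here mark the dorsal organizer and the precursors of the notochord of the zebrafish embryo: chrd, nog1, dkk1b, frzb, gsc, tbxta, noto and shha. They were chosen by symbol in the deposited abundance tables and joined to the read counts by Ensembl identifier, which gave 8 of 32520 genes, and all 8 had enough reads to be tested. RNA had been sequenced from whole embryos at 6 hours after fertilization, the onset of gastrulation, in 37 libraries of 12 groups. A group is defined by its RNA-targeting CRISPR effector (RfxCas13d, DjCas13d or Cas7-11), by a GFP amount of 10 pg or 50 pg, and by being labelled control or knockdown. There were 3 libraries in a group, save that RfxCas13d knockdown at 10 pg had 2 and both Cas7-11 groups at 10 pg had 4. The labels name neither the strain, the guides nor what the control embryos received. The titles of the samples give GFP as the target, but the design text of the series mentions primary miR-430.

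The organizer, called the shield in fish, forms on the dorsal side where maternal beta-catenin and Nodal signals meet. It secretes proteins that block bone morphogenetic proteins (BMPs) and Wnts, which leaves a gradient of BMP activity across the embryo, and its cells later move inwards to become prechordal plate and notochord. Chordin (chrd) and Noggin (nog1) bind BMPs outside the cell. Dickkopf (dkk1b) blocks the Wnt co-receptor Lrp6, and Frzb is a secreted Frizzled-related protein that binds Wnts. Goosecoid (gsc) is a homeodomain repressor of the prechordal plate. Noto is the homeodomain protein lost in the floating head mutant, which lacks a notochord, and shha encodes the Sonic hedgehog signal of the axial midline. The T-box factor tbxta, the fish Brachyury lost in the no tail mutant, is made in the whole ring of marginal mesoderm as well as in the notochord.

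Library depth, as reads counted in genes and divided by 1000000, was 3.945 to 8.034 for RfxCas13d, 5.946 to 7.338 for DjCas13d and 17.4 to 24.0 for Cas7-11. GFP stood lower in every knockdown library than in every control library in 6 of 6 comparisons of the arms, at 4.26 to 446 TPM (a level scaled by gene length and library total) against 224 to 21930 TPM. The nuclear noncoding RNA malat1 exceeded 5000 CPM (reads scaled to a common library total) in 5 libraries. With RfxCas13d these were control replicates 1 and 3 at 10 pg and control replicate 1 at 50 pg, and with DjCas13d knockdown replicates 1 and 2 at 10 pg. Separate clutches are not stated for the replicates, and the p-values below cover only the spread between these libraries, which may be technical.

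In control embryos the 8 genes ranged over more than 2 orders of magnitude. Over the 19 control libraries tbxta stood highest, with a lowest, median and highest level of 331, 517 and 580 TPM. Chordin mRNA followed at 134, 188 and 227 TPM, and noto at 56.1, 118 and 154 TPM. The next pair, gsc and dkk1b, had medians of 59.8 and 52.8 TPM. The secreted inhibitors nog1 and frzb had medians of 21.4 and 19.3 TPM, and shha came last with 0.8, 1.9 and 3.96 TPM. The order held in all 19 libraries for tbxta over chrd, chrd over noto, noto over gsc and frzb over shha. It held in 18 of 19 for dkk1b over nog1, in 15 of 19 for gsc over dkk1b and in 9 of 19 for nog1 over frzb, so neither gsc and dkk1b nor nog1 and frzb could be ordered. All control libraries thus held tbxta, chrd and noto, transcripts of the marginal and axial mesoderm of the gastrula. The least abundant gene, shha, was counted with 15 to 224 reads in a control library.

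**Figure D1:**
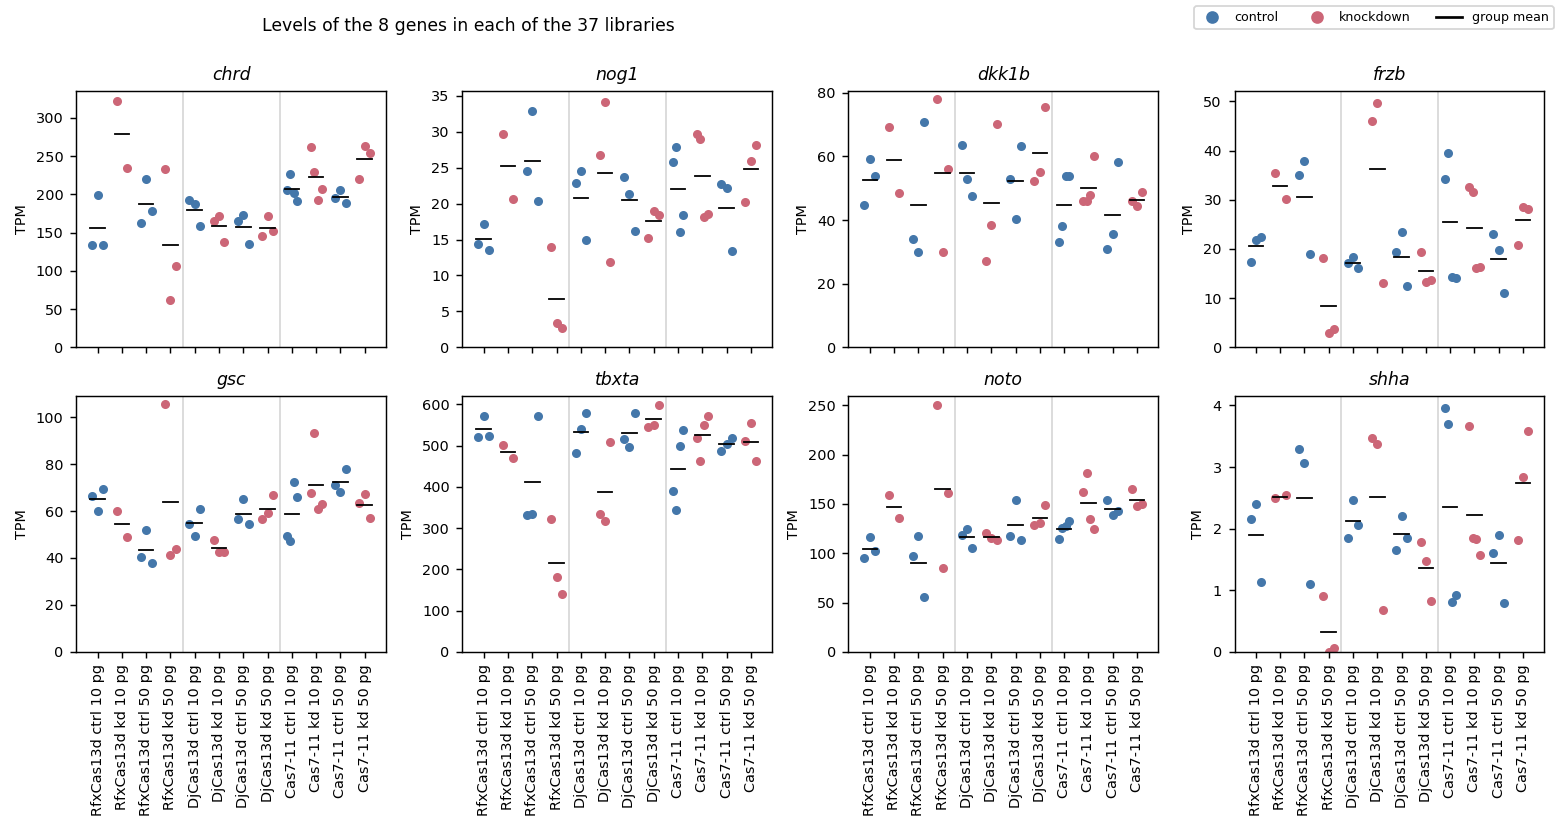
Level of each gene (TPM, linear axes from 0) in each of the 37 libraries, by group (ctrl, control; kd, knockdown); points are libraries and bars are group means. In the 50 pg RfxCas13d knockdown the points of chrd, nog1, frzb, shha and tbxta reach below all other libraries of these genes, and replicate 1 of that group, the leftmost point, is its highest for all 8 genes.

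Knockdown with 50 pg GFP and RfxCas13d was accompanied by lower levels of 5 of the 8 genes, and none was higher. The fold changes below are those of edgeR's quasi-likelihood test with Benjamini-Hochberg adjustment over 16321 genes, on normalised counts, and a gene was called changed at an adjusted p under 0.05. Both BMP antagonists, the Wnt antagonist frzb, the Hedgehog ligand shha and the T-box factor tbxta fell. The homeobox genes gsc and noto and the Wnt co-receptor blocker dkk1b did not pass the test. In this comparison 30% of all genes tested were called higher and 28.8% lower. The 5 of 8 genes that were lower are to be read against that second share. The median log2 fold change was -1.34 over the 8 genes and 0.05 over all genes tested. Since the embryos were measured whole, fewer cells of a type and less RNA per cell cannot be told apart.

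Chordin mRNA stood at 162, 220 and 178 TPM in replicates 1 to 3 of the 50 pg RfxCas13d controls and at 233, 61.2 and 106 TPM in those of the knockdown. The arms overlapped, because in TPM replicate 1 of the knockdown was above all 3 controls while the other 2 were below them. In the normalised CPM that the test uses, replicate 1 (429) lay among the controls (436, 561 and 376). The log2 fold change of chrd was -1.03 ± 0.30 (SE; adjusted p = 0.00413). The call for chrd was lost when libraries were scaled by size alone (-0.50, adjusted p = 0.0964) and when the spread was estimated from these 6 libraries alone (-1.03, adjusted p = 0.0991). For nog1 the levels were 24.6, 33.0 and 20.4 TPM in controls and 14.0, 3.31 and 2.64 TPM in the knockdown. All 3 knockdown libraries were below all 3 controls, and the log2 fold change was -2.59 ± 0.47 (adjusted p = 2.61e-05), a 6.03-fold fall.

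The Wnt antagonists parted. Frzb mRNA fell from 35.1, 37.8 and 18.9 TPM in controls to 18.1, 2.96 and 3.81 TPM, a log2 fold change of -2.47 ± 0.58 (adjusted p = 0.000729). Replicate 3 of the controls and replicate 1 of the knockdown nearly met, and the other libraries lay far apart. For dkk1b the values were 34.0, 29.9 and 70.8 TPM in controls and 78.0, 29.8 and 56.1 TPM in the knockdown. The arms overlapped over nearly their whole range, and the log2 fold change of -0.34 ± 0.32 did not pass (adjusted p = 0.376).

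Among the transcription factors, tbxta changed with the smallest adjusted p of the 8 genes. It stood at 331, 333 and 572 TPM in controls and at 322, 181 and 139 TPM in the knockdown. In TPM the highest knockdown library lay just under the lowest control, and in normalised CPM it lay further below (386 against 596). The log2 fold change of tbxta was -1.66 ± 0.24 (adjusted p = 7.94e-07), a 3.17-fold fall. The prechordal plate repressor gsc had 40.6, 51.8 and 37.9 TPM in controls and 106, 41.4 and 43.8 TPM in the knockdown. In TPM replicate 1 of the knockdown stood alone and the rest overlapped. In normalised CPM the other knockdown libraries (21.4 and 23.2) lay below the lowest control (29.1). The log2 fold change of gsc was -0.08 ± 0.28 (adjusted p = 0.82). Noto had 96.8, 117 and 56.1 TPM in controls and 250, 85.4 and 161 TPM in the knockdown. Again the arms overlapped, and its log2 fold change of 0.18 ± 0.28 did not pass (adjusted p = 0.592).

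The midline signal shha was close to 0 in 2 libraries of this group. Controls had 76, 81 and 15 reads, or 3.30, 3.07 and 1.10 TPM. The knockdown had 15, 0 and 1 reads, or 0.91, 0 and 0.06 TPM, and the 0 reads of replicate 2 allow a level of up to 0.545 CPM (3 reads, counting error only). All knockdown libraries were below all controls, replicate 3 of the controls being close to replicate 1 of the knockdown. The log2 fold change was -3.56 ± 0.81 (adjusted p = 0.00044), an 11.8-fold fall whose size rests on 16 reads in all 3 knockdown libraries. Leaving out 1 library moved the value to between -6.85 (adjusted p = 2.19e-05) without replicate 1 of the knockdown, where 1 read remains, and -2.91 (adjusted p = 0.00658) without its replicate 3.

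**Figure D2:**
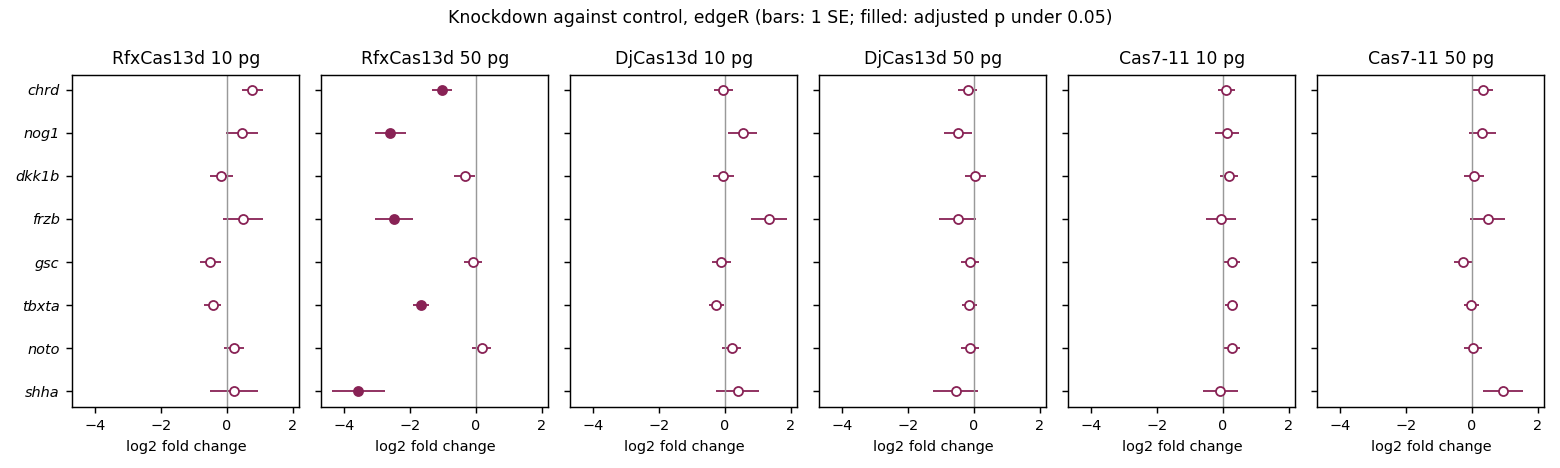
Log2 fold change (x axis) of each gene in knockdown against control embryos for the 6 combinations of effector and GFP dose; bars are 1 SE, and filled points have an adjusted p under 0.05 in edgeR's test. Filled points stand in the 50 pg RfxCas13d panel, for chrd, nog1, frzb, tbxta and shha, and all points of the other panels are open.

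Replicate 1 of the 50 pg RfxCas13d knockdown was the highest of the 3 for every one of the 8 genes. Without it, gsc and dkk1b passed the test as well, at log2 fold changes of -0.81 (adjusted p = 0.00379) and -0.79 (adjusted p = 0.0406), so that 7 of 8 genes were lower. The 28.8% of all genes lower given above is from the fit with all libraries, so that count has no share beside it. Without replicate 1 of the knockdown chrd was at -1.85, nog1 at -3.86, frzb at -3.93, shha at -6.85 and tbxta at -2.28, while noto was at -0.37 (adjusted p = 0.208). Replicate 3 of the 50 pg RfxCas13d controls also differed from its group, with the lowest nog1, frzb, noto and shha and the highest tbxta and dkk1b of the 3. Without that library the 5 calls stood and noto was at -0.13. In the controls malat1 was at 5830, 1653 and 1054 CPM in replicates 1 to 3 and mitochondrial mRNAs took 5.03%, 2.79% and 1.13% of reads, against 740, 416 and 749 CPM and 4.21%, 3.32% and 4.58% in the knockdown. Leaving out the malat1-rich libraries also left 5 genes called. The adjusted p-values of the main fit use a spread estimated over all 37 libraries. With the spread estimated from the groups compared alone, edgeR gave 0.00842 for tbxta, 0.00872 for nog1, 0.017 for frzb and 0.019 for shha. Under that setting chrd was not called.

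Scaling mattered for the 3 genes that did not pass and for the call of chrd. The factors by which edgeR corrects library sizes (TMM) ran from 0.822 to 0.967 for the control libraries and from 1.156 to 1.417 for the knockdown. With libraries scaled by size alone, the median of all genes tested moved from 0.05 to 0.64 on the log2 scale, and 7380 genes were called higher and 2529 lower, against 4900 and 4694 with TMM. Under that scaling gsc was at 0.46 and dkk1b at 0.19, both on the other side of 0 and not called, and noto was called higher at 0.75 (adjusted p = 0.00873). Limma on log2(TPM + 1) also called noto higher, at 0.80 (adjusted p = 0.00462). Relative to the median of all genes, noto was 0.13 higher with TMM and 0.11 higher with library size alone, so its distance from that median moved little. The directions of nog1, frzb, tbxta, shha and chrd held under all these scalings, but edgeR with library size alone did not call chrd (-0.50, adjusted p = 0.0964).

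**Figure D3:**
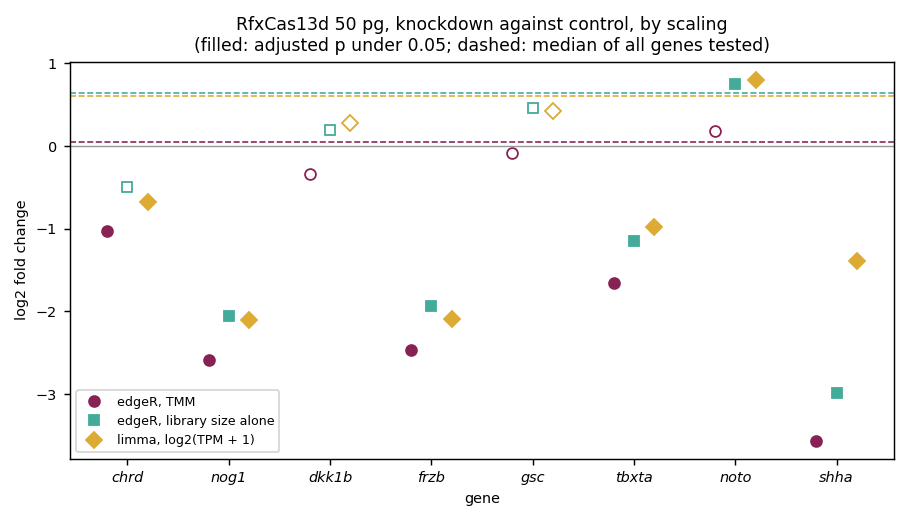
Log2 fold change (y axis) of each gene in the 50 pg RfxCas13d knockdown against its controls under 3 scalings of the libraries; dashed lines are the medians of all genes tested, and filled points have an adjusted p under 0.05. Points of gsc and dkk1b cross 0 between scalings, and noto is filled under library size alone and under limma on log2(TPM + 1). The point of chrd is open under library size alone.

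At 10 pg with RfxCas13d edgeR and DESeq2 each called 0 of the 8 genes, and 1, chrd, had an unadjusted p under 0.05, while 7% of all genes were called higher and 6.98% lower (1142 and 1139 genes; 1334 and 757 with library size alone). Chordin mRNA came nearest, at 134, 199 and 134 TPM in the 3 controls and 322 and 235 TPM in the 2 knockdown libraries. Both knockdown libraries were above all 3 controls, and the log2 fold change was 0.78 ± 0.33 (adjusted p = 0.102). Chrd passed with library size alone (0.88, adjusted p = 0.0394) and in limma on log2(TPM + 1) (0.84, adjusted p = 0.0372). The arms did not overlap in TPM for nog1 (14.4, 17.1 and 13.5 against 29.7 and 20.7), frzb (17.4, 21.8 and 22.4 against 35.5 and 30.1) or noto (94.9, 117 and 102 against 159 and 136), the knockdown being the higher in each. The same held narrowly for shha, at 2.16, 2.40 and 1.14 against 2.49 and 2.55 TPM, and the reverse for tbxta, at 522, 572 and 524 against 501 and 469 TPM. The arms of shha overlapped in normalised CPM (7.05, 6.21 and 3.97 against 6.57 and 6.89). Those of gsc overlapped in TPM, but in normalised CPM the knockdown was the lower (59.6, 42.8 and 59.9 against 42.1 and 34.6). The log2 fold changes of nog1, frzb and noto were 0.46 ± 0.48, 0.49 ± 0.60 and 0.22 ± 0.31 (adjusted p = 0.542, 0.616 and 0.668). For tbxta, gsc and dkk1b the values were -0.42 ± 0.26, -0.50 ± 0.32 and -0.16 ± 0.36, and for shha 0.22 ± 0.74. Replicates 1 and 3 of these controls are malat1-rich and held 9.65% and 8.7% of their reads in the 13 mRNAs encoded in mitochondria, against 1.68% to 2.25% in the other 3 libraries of the comparison, and the part of this in the values was not tested.

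With DjCas13d edgeR and DESeq2 called 0 of the 8 genes at either dose, and frzb at 10 pg was the 1 gene with an unadjusted p under 0.05. At 10 pg edgeR called 0% of all genes higher and 0% lower, although 2553 had an unadjusted p under 0.05 and DESeq2 called 98. At 50 pg the shares were 0% and 0.00613%. The 10 pg knockdown was split between its malat1-rich replicates 1 and 2 and replicate 3. Frzb had 45.9 and 49.8 TPM in the first pair and 13.1 TPM in replicate 3, against 17.1, 18.4 and 16.2 TPM in controls. The same 2 libraries had more nog1 (26.8 and 34.1 against 11.8 TPM) and shha (3.48 and 3.37 against 0.68 TPM) than replicate 3, and less tbxta (333 and 317 against 510 TPM) and dkk1b (27.0 and 38.6 against 70.1 TPM). The log2 fold change of frzb was 1.34 ± 0.55 (adjusted p = 0.264), and without replicate 3 it passed at 1.78 (adjusted p = 0.0281). For gsc the 10 pg knockdown, at 47.8, 42.7 and 42.7 TPM, lay below its controls at 54.3, 49.3 and 60.7 TPM, but in normalised CPM the arms overlapped and the log2 fold change was -0.10 ± 0.28. At 50 pg the arms overlapped in TPM for each of the 8 genes, and log2 fold changes lay between -0.55 ± 0.68 for shha and 0.04 ± 0.32 for dkk1b. Tbxta did not overlap in normalised CPM, at 701.5, 667.6 and 690.3 in the knockdown against 755.6, 746.4 and 749.2 in controls. Its log2 fold change was -0.13 ± 0.23.

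With Cas7-11, the most deeply sequenced libraries, edgeR and DESeq2 called 0 of the 8 genes at either dose, and 0 had an unadjusted p under 0.05. EdgeR's spread is shared over all 37 libraries, and at either dose fewer than 1 in 20 of all genes had an unadjusted p under 0.05. These tests may thus be too strict for Cas7-11, which was not tested. The shares of all genes called higher and lower were 0.00613% and 0.0674% at 10 pg and 0% and 0.0613% at 50 pg. At 10 pg the log2 fold changes lay between -0.08 ± 0.53 for shha and 0.29 ± 0.24 for noto. At 50 pg they lay between -0.26 ± 0.27 for gsc and 0.95 ± 0.61 for shha, all with an adjusted p of 1. For shha the 50 pg controls had 1.61, 1.90 and 0.80 TPM and the knockdown 1.82, 2.84 and 3.58 TPM, so the arms overlapped. At 50 pg chrd was higher in all 3 knockdown libraries (220, 264 and 254 TPM) than in controls (195, 205 and 188 TPM), with a log2 fold change of 0.34 ± 0.29. In the same libraries gsc was lower, at 63.6, 67.1 and 57.0 against 71.2, 68.1 and 78.0 TPM. The 10 pg controls differed among themselves. Replicates 1 and 2 had 3.96 and 3.70 TPM of shha and replicates 3 and 4 had 0.81 and 0.93 TPM. Frzb followed with 34.3 and 39.5 against 14.2 and 14.0 TPM, and nog1 with 25.8 and 27.9 against 16.0 and 18.5 TPM. The opposite order was seen for tbxta, at 390 and 344 against 500 and 538 TPM, and for dkk1b, at 33.1 and 38.1 against 53.7 and 54.0 TPM. The 10 pg knockdown was split likewise in frzb (32.65 and 31.61 against 16.11 and 16.27 TPM) and nog1 (29.7 and 29.05 against 18.08 and 18.52 TPM). Its tbxta was at 518 and 463 against 549 and 571 TPM. Less clear were shha (3.66 and 1.85 against 1.83 and 1.57 TPM) and dkk1b (46.12 and 45.87 against 48.01 and 60.23 TPM).

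The same opposition paired more frzb, nog1 and shha with less tbxta and dkk1b. It was seen among the 10 pg DjCas13d knockdown libraries and the 10 pg Cas7-11 controls, and less clearly in the 10 pg Cas7-11 knockdown. It was also seen between replicate 3 and the other 50 pg RfxCas13d controls. Replicate 3 of the 50 pg Cas7-11 controls had the lowest frzb, nog1 and shha of its group (11.1, 13.4 and 0.80 TPM) and the highest dkk1b (58.2 against 31.0 and 35.5 TPM), with tbxta at 519 against 486 and 504 TPM. The 50 pg RfxCas13d knockdown departed from this, since there frzb, nog1, shha and tbxta were all low together in replicates 2 and 3. The highest gsc of all 37 libraries and the highest noto were both in replicate 1 of that knockdown, in TPM and in normalised CPM (70.2 and 127 CPM). The lowest normalised counts of both genes, 21.4 CPM for gsc and 33.4 CPM for noto, were in its replicate 2. In TPM the lowest of both were in replicate 3 of the 50 pg RfxCas13d controls, at 37.9 for gsc and 56.1 for noto.

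**Figure D4:**
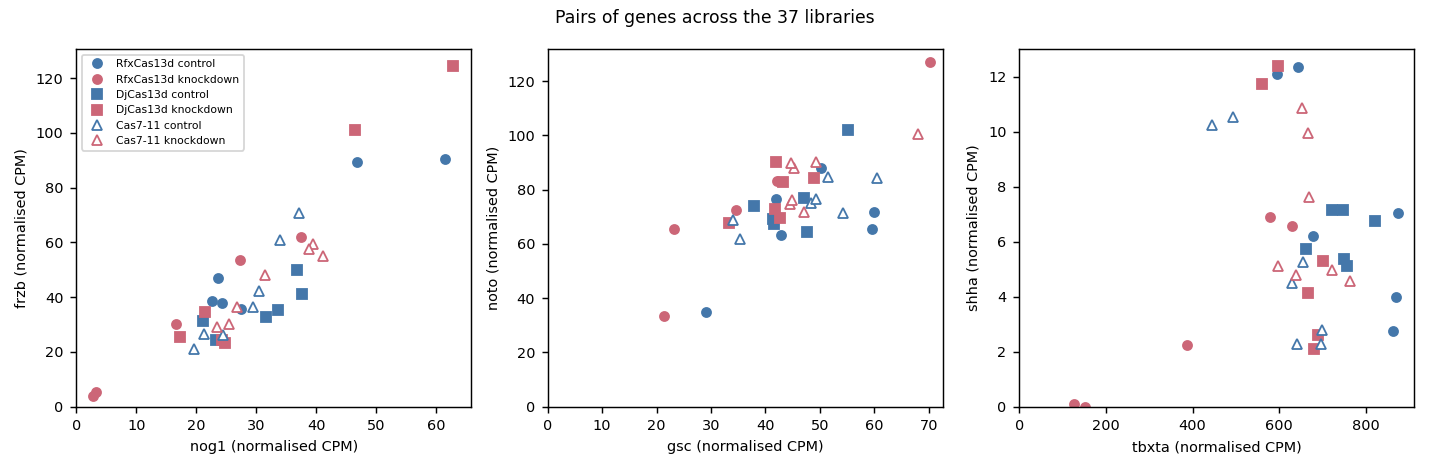
Normalised CPM of pairs of genes in the 37 libraries: frzb against nog1 (left), noto against gsc (middle) and shha against tbxta (right), with symbols by effector and colours by arm. Frzb and nog1 lie along one line with 2 libraries of the 50 pg RfxCas13d knockdown at its foot, and the same 2 libraries are lowest in tbxta and shha. Among the others shha differs at like tbxta, as in replicate 1 of the 50 pg RfxCas13d controls (12.35 CPM of shha and 644 of tbxta) and replicate 3 of the 10 pg Cas7-11 controls (2.29 and 641 CPM).

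Tests of the difference between responses placed the fall with RfxCas13d at the higher GFP dose. The response at 50 pg minus that at 10 pg was lower for 5 of 8 genes and higher for 0, where 20.9% of all genes were lower and 19.8% higher (3415 and 3230 genes; 2011 and 4701 with library size alone). These log2 differences were -1.80 ± 0.44 for chrd (adjusted p = 0.00179), -3.05 ± 0.66 for nog1 (0.000576), -3.78 ± 1.09 for shha (0.00694), -2.96 ± 0.83 for frzb (0.00569) and -1.25 ± 0.35 for tbxta (0.00509). The differences of gsc, dkk1b and noto were 0.42 ± 0.42, -0.17 ± 0.48 and -0.04 ± 0.42. Without the malat1-rich libraries 3 genes were called, as shha was at -3.42 (adjusted p = 0.0602) and frzb at -2.87 (adjusted p = 0.053). With the spread taken from these groups alone 3 were called, as chrd was at -1.76 (adjusted p = 0.0674) and tbxta at -1.20 (adjusted p = 0.101). With DjCas13d and with Cas7-11 the doses differed for 0 of 8 genes, and edgeR called 0% of all genes higher and 0% lower with either effector. An unadjusted p under 0.05 was given to 2877 genes with DjCas13d, where DESeq2 called 239, and to 200 with Cas7-11, where it called 0. Among the 8 genes only frzb with DjCas13d had one. The largest of these differences were -1.82 ± 0.78 for frzb with DjCas13d (adjusted p = 0.229; -2.28, adjusted p = 0.0397, without replicate 3 of the 10 pg knockdown) and 1.03 ± 0.80 for shha with Cas7-11.

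At 50 pg the response with RfxCas13d was lower than that with DjCas13d for 3 of 8 genes, against 17.5% of all genes lower and 15.8% higher (2853 and 2574 genes; 1551 and 4300 with library size alone). These were nog1 (-2.12 ± 0.63, adjusted p = 0.00992), shha (-3.01 ± 1.06, adjusted p = 0.0288) and tbxta (-1.54 ± 0.33, adjusted p = 0.000683). Frzb, at -1.98 ± 0.79, and chrd, at -0.85 ± 0.42, did not pass (adjusted p = 0.0546 and 0.115). Frzb did pass in DESeq2 (-1.94, adjusted p = 0.0299), in limma on log2(TPM + 1) (-1.87, 0.0324) and log2(TPM + 0.1) (-2.06, 0.0313), with the replicate block (-2.37, 0.0113) and without replicate 3 of the RfxCas13d controls (-2.30, 0.0267). The call of shha was lost at log2 differences of -2.36 to -3.01, and of -1.08 in limma on log2(TPM + 1). These losses came without the low-count filter (adjusted p = 0.0631), with the groups compared alone (0.0533), without the malat1-rich libraries (0.0547), in limma on log2(TPM + 1) (0.118), and without replicate 1 or 2 of the RfxCas13d controls (0.0639 and 0.0642), replicate 2 or 3 of the RfxCas13d knockdown (0.0766 and 0.106), replicate 1 or 3 of the DjCas13d controls (0.0514 and 0.0545) or replicate 1 of the DjCas13d knockdown (0.0652). Without replicate 1 of the RfxCas13d knockdown 5 genes were called, frzb at -3.44 and chrd at -1.67 among them. The shares of all genes above are from the fit with all libraries, so that count has no share beside it. Against Cas7-11 the response with RfxCas13d was lower for 5 of 8 genes, with 22.6% of all genes lower and 22.7% higher (3689 and 3699 genes; 1964 and 5796 with library size alone): chrd -1.37 ± 0.42, nog1 -2.91 ± 0.62, shha -4.50 ± 1.02, frzb -2.95 ± 0.79 and tbxta -1.65 ± 0.33 (adjusted p = 0.00889, 0.000404, 0.000733, 0.0034 and 0.000198). The call for chrd was lost with library size alone (-0.86, adjusted p = 0.0529) and with the groups compared alone (-1.38, adjusted p = 0.069). These comparisons share the RfxCas13d libraries. Between DjCas13d and Cas7-11 edgeR and DESeq2 called a difference for 0 of 8 genes, and 0 had an unadjusted p under 0.05, with 0.00613% of all genes higher and 0% lower.

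Further genes of the same pathways were read from lists, beginning with those upstream of the organizer. Each count at 50 pg with RfxCas13d stands beside the 30% of all genes higher and 28.8% lower given above, and with library size alone beside 7380 higher and 2529 lower of 16321. Of 13 tested genes of dorsal beta-catenin signalling and early induction, 4 were higher and 8 lower in the 50 pg RfxCas13d knockdown, with a median log2 fold change of -0.56. Beta-catenin itself, ctnnb1, fell from 2380 ± 232 to 919 ± 338 CPM (SD, n = 3; log2 fold change -1.37 ± 0.18, adjusted p = 1.13e-07). Sybu (syntabulin), a maternal mRNA needed for dorsal transport, rose by 3.27 ± 0.48 (adjusted p = 9.65e-07), and the repressor tcf7l1b fell by 1.20 ± 0.18 on the log2 scale (adjusted p = 1.71e-06). With library size alone 4 were higher and 4 lower with a median of 0.08, and without replicate 3 of the knockdown 2 were higher and 7 lower. Limma on log2(TPM + 1) gave 5 higher and 3 lower with a median of 0.31, and there tcf7l1b was at -0.03 (adjusted p = 0.904). Of 15 tested genes of Nodal signalling 7 were higher and 4 lower, with a median of 0.40. The T-box factor eomesa, also a maternal mRNA, rose by 4.14 ± 0.39 (adjusted p = 6.78e-10), the Nodal effector smad2 rose by 1.25 ± 0.20 (3.28e-06) and its partner foxh1 fell by 1.12 ± 0.15 on the log2 scale (2e-07). The Nodal split was 9 higher and 2 lower with library size alone. It was 4 higher and 4 lower without replicate 1 or replicate 2 of the controls, and the share lower, 4 of 15, is near that of all genes.

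Of 19 tested further organizer and prechordal plate genes 3 were higher and 8 lower, with a median of -0.74. The growth factor fgf8a fell by 1.23 ± 0.23 (adjusted p = 3.62e-05) and the Wnt antagonist sfrp1a by 2.01 ± 0.41 (0.000123) on the log2 scale, while fgf17 rose by 1.42 ± 0.28 (6.91e-05). In limma on log2(TPM + 1) fgf8a did not pass (-0.46, adjusted p = 0.0609), and with library size alone the list had 5 higher and 6 lower. Without replicate 1, 2 or 3 of the knockdown 1, 5 and 4 were higher and 10, 7 and 6 lower, and without replicate 1 or 2 of the controls 2 were higher and 7 lower. Of 14 tested notochord, midline and Hedgehog genes 1 was higher and 8 were lower, with a median of -1.46. The Hedgehog signal transducer smo fell from 189 ± 22.4 to 42.9 ± 24.4 CPM (log2 fold change -2.14 ± 0.22, adjusted p = 3.58e-09). The mesodermal T-box factor tbx16 fell by 1.27 ± 0.16 (7.06e-08) and the Hedgehog effector gli2a by 1.93 ± 0.36 (3.07e-05) on the log2 scale. The split was 2 higher and 5 lower with library size alone and 2 and 4 in limma on log2(TPM + 1). Without replicate 2 of the knockdown 4 were lower and without its replicate 3 5 were lower, with 1 and 0 higher, and without replicate 3 of the controls 2 were higher and 8 lower.

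The BMP side of the axis is the one against which chordin and noggin act. Of 19 tested genes of its list 3 were higher and 14 lower, with a median of -0.88. The BMP pseudoreceptor gene bambia fell from 438 ± 109 to 105 ± 27.0 CPM (log2 fold change -2.06 ± 0.22, adjusted p = 6.93e-09), the receptor bmpr1aa by 1.30 ± 0.14 (1.01e-08) and the effector smad1 by 3.33 ± 0.43 (1.09e-07) on the log2 scale. With library size alone the split was 4 higher and 7 lower, against 7380 higher and 2529 lower over all genes, and without replicate 1 of the controls or replicate 3 of the knockdown it was 2 and 13.

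Lists of other tissues of the embryo and of maternal mRNA moved beside these genes, and their part in the values above was not tested. Of 13 tested markers of the enveloping layer, the outer epithelium, 1 was higher and 12 lower with a median of -1.66: the keratin krt4 fell by 2.32 ± 0.27 (adjusted p = 2.78e-08), the claudin cldne by 1.49 ± 0.18 (3.43e-08) and the calpain capn9 by 1.66 ± 0.21 (6.57e-08). Of 9 tested markers of the yolk syncytial layer 2 were higher and 6 lower with a median of -1.32. The apolipoproteins apoc1 and apoeb fell by 2.71 ± 0.34 (1.06e-07) and 1.84 ± 0.27 (1.47e-06), and the homeobox gene mxtx2 rose by 4.98 ± 0.77 (3.94e-06). Without replicate 1 of the knockdown the split was 2 higher and 7 lower and the median -2.49. Of 14 tested maternal mRNAs 13 were higher and 0 lower with a median of 3.11. Btg4, an adaptor of mRNA deadenylation, rose from 4.11 ± 1.65 to 152 ± 43.7 CPM (log2 fold change 5.19 ± 0.39, adjusted p = 1.92e-11), buc, the organizer of the oocyte's Balbiani body, by 4.97 ± 0.46 (9.79e-10) and cd82b by 3.58 ± 0.29 (5.08e-11). Summed over the list, enveloping layer markers had 11600 to 21300 CPM in the 3 controls and 3230 to 7700 CPM in the knockdown, yolk syncytial layer markers (10 matched) 4490 to 8460 and 1300 to 3890 CPM, and maternal mRNAs 327 to 638 and 2250 to 3800 CPM. Of these markers 1, rbp4, had 0 reads in the whole knockdown group, and it also had 0 reads in the whole 10 pg RfxCas13d knockdown group. Enveloping layer and maternal splits were 1 higher and 11 lower, and 13 and 0, with library size alone.

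**Figure D5:**
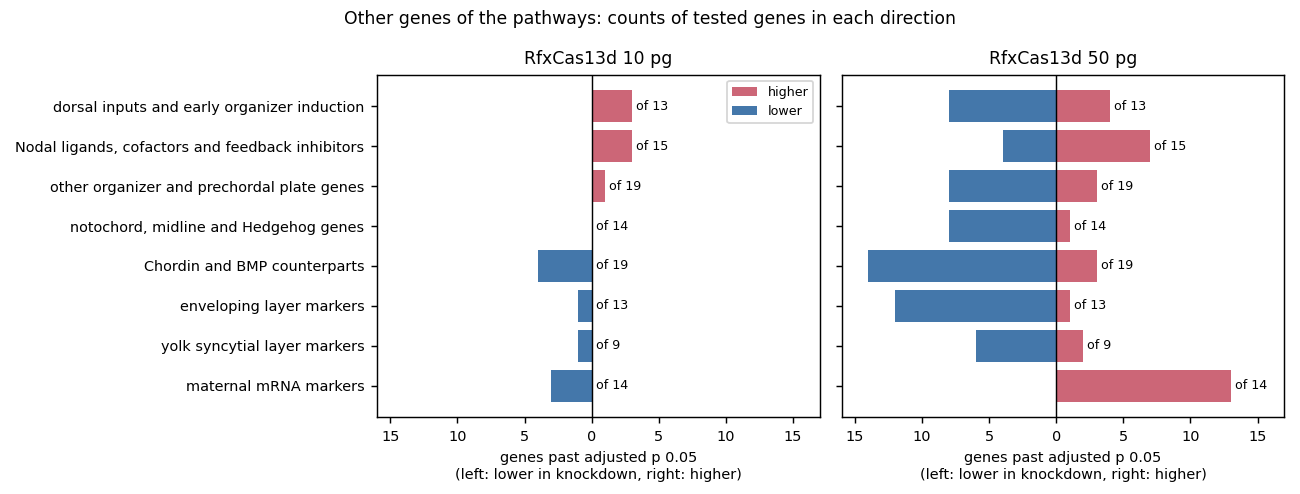
Number of tested genes of each list (rows) called higher (right) or lower (left) in the knockdown with RfxCas13d at 10 pg (left panel) and 50 pg (right panel), with the number tested beside each bar. Maternal mRNA markers stand at 13 higher of 14 at 50 pg, and enveloping layer markers at 12 lower of 13.

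At 10 pg with RfxCas13d fewer genes of the lists were called, and these calls rest on few libraries. The shares of all genes were 7% higher and 6.98% lower, and 1 call in a list of 9 to 19 genes is near them. None of the list genes was called without the malat1-rich libraries, which leaves 1 control, or with the spread taken from these groups alone. Over all genes 2281 were called, against 1 and 0 under those 2 settings, 478, 4522 and 563 without control replicate 1, 2 or 3, and 133 and 186 without knockdown replicate 1 or 2. Dorsal inputs had 3 higher and 0 lower (tcf7l1a 1.10 ± 0.30, ctnnb1 0.62 ± 0.19 and lef1 0.75 ± 0.23, adjusted p = 0.0158, 0.0292 and 0.0297). Nodal genes had 3 higher and 0 lower (dact2, smad4a and acvr2aa), and the other organizer genes 1 higher, hhex, at 1.87 ± 0.50 (adjusted p = 0.0149). Of 14 notochord and Hedgehog genes edgeR called 0 and DESeq2 2. Of the BMP genes 4 were lower, among them bmp2b at -0.65 ± 0.17 (adjusted p = 0.0131), bambia at -0.88 ± 0.25 (0.0187) and szl, a secreted inhibitor of Chordin proteases, at -1.46 ± 0.43 (0.0244). The enveloping and yolk syncytial layers had 1 lower each (cldne and apoc1), and 3 maternal mRNAs were lower (zp2.5, zar1l and h1m). With library size alone these 3 lists had 0, 1 and 1 lower and 0 higher. In limma on log2(TPM + 1), where 2659 of all genes were higher and 623 lower, they had 5, 1 and 0 higher and 0 lower, and the BMP genes 3 higher and 2 lower. With DjCas13d and Cas7-11 edgeR called 0 genes of the 8 lists at either dose, where 1528 genes in all had an unadjusted p under 0.05 with DjCas13d at 50 pg, and 423 and 525 with Cas7-11 at 10 pg and 50 pg.

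Genes of like pattern were sought over the means of the 12 groups among 10506 named genes, with Pearson's r of log2 CPM as the measure and no test, since groups of 1 effector are alike in depth. Nog1 was most like tbx16l (0.989), dnmt3ba (0.986) and msgn1 (0.986), and shha most like ccnf (0.99), ptbp2b (0.989) and dnmt3ba (0.986). Chrd was most like atp6v0cb (0.983), itgb5 (0.981) and b3gnt2b (0.979). Frzb was most like ppardb (0.982), ntd5 (0.978) and cxxc5b (0.977), and tbxta most like sult6b1 (0.979), ppm1da (0.977) and dzip1 (0.977). The genes that did not pass at 50 pg with RfxCas13d had less close company. This is not separate from the calls, since the 12 means include that knockdown, where 28.8% of all genes were lower. Dkk1b was most like znf800a (0.951), ubr3 (0.931) and iah1 (0.926). For gsc the nearest were dleu7 (0.915), vgll4l (0.876) and tnfb (0.87), and for noto rab7a (0.851), ddx20 (0.816) and vox (0.814), the last a repressor of organizer genes.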

How the data were processed

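Total RNA of whole embryos was extracted with TRIzol and made into directional libraries, per the labels' protocols. The genome build was danRer11, per the submitters' processing notes. The aligner, counter and strand setting were not given in the sources used here, so genes that overlap others or have near-identical copies are uncertain. The authors deposited raw counts of reads per gene and, separately, TPM values for each library. Summary entries (17.3% to 26.4% of reads) stayed out of library sizes and tests. The files named 20859 genes, and a table of names gave 8382 more. No replicates were duplicates: over 40 pairs within groups, chi-square divided by its degrees of freedom lay between 3.2 and 58.41.

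Counts were filtered by filterByExpr, scaled by TMM and tested with edgeR 4.0.16 in R 4.3.3, using 1 quasi-likelihood fit (robust) of 37 libraries with a coefficient per group. The 12 contrasts were 6 of knockdown against control, 3 of dose differences and 3 of effector differences at 50 pg. P-values were adjusted over all genes by the Benjamini-Hochberg method. The biological coefficient of variation was 0.253. The SE is the log2 fold change divided by the root of its F statistic. The fit was tested on simulated counts. Alternatives used DESeq2 1.42.0, library size alone, no low-count filter, limma 3.58.1 on log2(TPM + 1) and log2(TPM + 0.1), the groups compared alone, no malat1-rich libraries, a replicate block and each library left out.

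With Cas7-11 at 10 pg, same-numbered control and knockdown libraries deviated together (r = 0.28 to 0.51 across genes). Unlike numbers did so too (up to 0.45). Across the arms, replicates 1 and 2 deviated together whatever their number (0.18 to 0.51), as did 3 and 4 (0.28 to 0.45). Between these sets r was -0.47 to -0.25. Only in this comparison did every same-numbered pair exceed 0.1, but pairing by number cannot be told apart from the shared sets. The 8 genes and the lists were chosen with earlier results of these data known. List genes named in the text are up to 3 per list with the smallest adjusted p. Genes of like pattern are the 3 with the highest r among named genes of mean log2 CPM of at least 1, with the 8 genes left out. Klf17 is in 2 lists. Symbols acvr1bb, tbxtb, ctgfa, twsg1b and sizzled were not matched and not used here.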

Additional observations from a re-analysis of the deposited data

Results flagged for a closer look

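In the 4 libraries of the 10 pg Cas7-11 knockdown, 1 library stood apart in shha, at 3.66 TPM against 1.85, 1.83 and 1.57 TPM, a gap of 0.866 of the group's range. In the same group replicate 4 stood apart in dkk1b, at 60.2 TPM against 46.1, 45.9 and 48.0 TPM, a gap of 0.851 of the range. Among 16 combinations of gene and group of 4 these were 2. Chance gives about 1 in 20 for independent libraries. That rate need not hold here, since the combinations share libraries and replicates 1 and 2 deviated together, as did 3 and 4.

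For 13 combinations a response differed between doses or effectors by a test of the difference itself. With RfxCas13d, 50 pg minus 10 pg, the log2 differences were -1.80 for chrd, -3.05 for nog1, -3.78 for shha, -2.96 for frzb and -1.25 for tbxta. For RfxCas13d minus DjCas13d at 50 pg they were -2.12 for nog1, -3.01 for shha and -1.54 for tbxta. For RfxCas13d minus Cas7-11 at 50 pg they were -1.37 for chrd, -2.91 for nog1, -4.50 for shha, -2.95 for frzb and -1.65 for tbxta.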

How the results depend on the processing

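In the 50 pg RfxCas13d knockdown, 5 to 7 of the 8 genes were called when 1 library was left out, all lower, and 4 to 6 under the other alternatives. The latter counts include noto as higher with library size alone (0.75) and in limma on log2(TPM + 1) and log2(TPM + 0.1) (0.80 and 0.81). The calls over all genes, some of them given below, also moved between settings. Counts of the 8 genes in this paragraph are printed without the share of each setting. With RfxCas13d at 10 pg the count went from 0 to 1 with library size alone, in limma on log2(TPM + 1) and in limma on log2(TPM + 0.1), chrd in each case. With RfxCas13d the difference between GFP doses went from 5 to 3 with the groups compared alone and without the malat1-rich libraries. It stayed at 5 with any library left out. With 1 library left out, RfxCas13d minus DjCas13d ranged from 2 to 5 genes, RfxCas13d minus Cas7-11 stayed at 5, the 10 pg DjCas13d count and the DjCas13d dose difference ranged from 0 to 1, and the other counts stayed at 0. With the replicate block the counts were 5 in the 50 pg RfxCas13d knockdown, 5 in its dose difference, 5 against Cas7-11, 4 against DjCas13d (frzb at -2.37, adjusted p = 0.0113) and 0 in the others. Of 1984 values of single genes under alternatives, 1944 had the same call, 23 lost it, 17 gained it and 0 changed sign while called. The 1944 include genes called in neither fit, even where their sign changed, as for gsc and dkk1b at 50 pg with RfxCas13d. They also include list genes picked for the smallest adjusted p, so that total does not measure how firm the calls are. The cause of the lost and gained calls was not tested. Over all genes, 2281 were called with RfxCas13d at 10 pg, against 3038 in DESeq2, 1475 without the low-count filter, 348 with the replicate block, 1 without the malat1-rich libraries and 0 (3573 at an unadjusted p under 0.05) with the groups compared alone. At 50 pg 9594 were called, against 6012 with these groups alone. DjCas13d at 50 pg had 1 gene called, against 979 with these groups alone and 44 in DESeq2. DjCas13d at 10 pg had 0, and up to 2643 with 1 library left out. The difference between GFP doses with RfxCas13d had 6645, against 3709 with these groups alone and 4345 without the malat1-rich libraries. DjCas13d minus Cas7-11 had 1, against 101 with these groups alone. Cas7-11 at 10 and 50 pg had 12 and 10, against 29 and 32 in DESeq2. The fewest reads were those of shha, 0 to 240 in a library, and its SE was the largest of the 8 genes in each comparison of the arms.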
